A study of Arabidopsis thaliana with 16 samples.

Results

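Transcript levels in whole rosettes of 2 autophagy mutants of Arabidopsis thaliana, atg9 and atg5, were set against each other at 30 and at 60 days after sowing. The comparison took the 4 arrays of atg9 and the 4 arrays of atg5 from plants kept on low nitrate, 8 of the 16 arrays of the series, and asked which genes differed between the mutants at both ages. The mutants were atg5-3 (SALK_02060, as the design text spells it) and atg9 (SALK_130796), both insertion lines in the Col-0 background. All 8 arrays came from plants on 2 mM nitrate in short days of 8 h light and 16 h dark. Each age was sampled in 2 cultures grown months apart, so that every atg9 array had an atg5 array of the same age and culture, which gave 4 matched pairs. An array held the pooled rosettes of more than 6 plants. The p-values therefore rest on the spread between pools that remains after age and culture are fitted, and not on the spread between plants. The 4 Col-0 arrays on low nitrate were used to place the wild type beside the mutants. The 4 arrays on high nitrate, at 10 mM, entered the filter on dim probe sets and named alternatives alone. They were 2 of Col-0 and 2 of atg5, with none of atg9. Their age is given as 30 days in the titles and as 60 days in the source names. Each mutant was represented by 1 insertion line.

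Macroautophagy encloses cytoplasm in a double membrane, the autophagosome, and delivers it to the vacuole, where its proteins are broken down and their nitrogen is recycled. ATG5 is joined to ATG12, and this conjugate attaches the small protein ATG8 to the lipid of the growing membrane. ATG9 is a membrane protein that travels on small vesicles and supplies the growing membrane, and loss of ATG5 blocks ATG8 lipidation while loss of ATG9 does not remove the conjugation machinery. In leaves, autophagy mutants are known for early senescence, raised salicylic acid responses and weak nitrogen remobilisation.

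Signals were MAS5 values on a linear scale, and differences are given as atg9 minus atg5 on the log2(signal + 32) scale, which understates changes of dim probe sets. The 8 mutant arrays had median signals of 155 to 195. The actin 3'/5' ratio, a sign of RNA quality, was 9.05 on the atg5 array of 60 days and culture 1 and 1.9 to 3.04 on the other 7, and the GAPDH ratio was 2.01 there and 0.802 to 1.24 on the others. The Col-0 array of 30 days and culture 1 stood apart, with its lower quartile at 89.3 where the other 3 Col-0 arrays had 28 to 28.4, and dim probe sets read high on it. RCA, for Rubisco activase of green leaves, had signals of 17246.3 to 31078.3 on the mutant arrays. Of the 22746 probe sets that are not controls, 13648 were tested, and 7311 of these (53.6%) carry 1 gene name in the annotation. ATG5 and ATG9 have no probe set under their names, and whether a probe set without a gene name measures either of the disrupted genes was not determined. Many of the probe sets that differed most carry no gene name.

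Over both ages no probe set passed limma's test with Benjamini-Hochberg adjustment (0 of 13648, background 0%, smallest adjusted p = 0.414). An unadjusted p under 0.05 was found for 857 probe sets, of which 546 were lower in atg9 (4%) and 311 higher (2.28%), where 682 would be expected if none differed. The count of 857 was 473 without the atg9 array of 60 days and culture 1, 449 with the 12 low-nitrate arrays and 1587 with the 4 pairs as blocks. The median difference over all probe sets was 0.035. Differences below are therefore values and not calls, unless a sentence says that a probe set passed.

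Probe set 264113_at stood furthest apart. Its signals in atg5 were 133.6 and 179.6 at 30 days and 1014.9 and 532 at 60 days, in cultures 1 and 2. In atg9 they were 6.9 and 4.6 at 30 days and 1.9 and 3.7 at 60 days. All 4 atg9 arrays lay below all 4 atg5 arrays, and every atg9 value was under the lower quartile of its array, which ran from 26.6 to 32.4. Col-0 had 297.6 and 188.6 at 30 days and 293.9 and 236.4 at 60 days, within the range of the atg5 arrays, and the fitted difference from Col-0 was 0.43 in atg5 and -2.96 in atg9. Between the mutants the difference was -3.39 ± 0.43 (SE) over both ages (limma adjusted p = 0.414). At 60 days it fell by 4.47 ± 0.31, the only call there (limma adjusted p = 0.0419, 1 of 13648, background 0.00733%), and at 30 days the value was -2.31 ± 0.31 (adjusted p = 1). The 60-day call was lost without any 1 of 7 of the 8 arrays and held without the atg5 array of 60 days and culture 2. It also rests on the filter on dim probe sets, which took in the Col-0 and high-nitrate arrays. With that filter over the 8 mutant arrays alone, 264113_at was not tested. The annotation gives this probe set no gene, and whether it measures one of the disrupted genes was not determined.

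The opposite pattern was shown by 250088_at. Its atg5 signals were 88.7 and 93.3 at 30 days and 199.5 and 90.7 at 60 days, and its atg9 signals were 215 and 361.2 and then 442.5 and 406.3. All 4 atg9 arrays lay above all 4 atg5 arrays. Col-0, at 543.5, 339.1, 328.4 and 386.2, overlapped with atg9 and lay above every atg5 array. The difference between the mutants was 1.39 ± 0.24 (limma adjusted p = 0.429), with 1.34 at 30 days and 1.44 at 60 days. Against Col-0 it fell by 1.56 in atg5 (limma adjusted p = 0.0498) and lay at -0.17 in atg9 (adjusted p = 0.966). The call in atg5 was kept in only 5 of 21 alternatives. This probe set has no gene name either, and the same doubt holds for it. Among all 13648, only 264113_at was over 2-fold lower in atg9 in all 4 matched pairs, and only 250088_at over 2-fold higher.

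**Figure D1:**
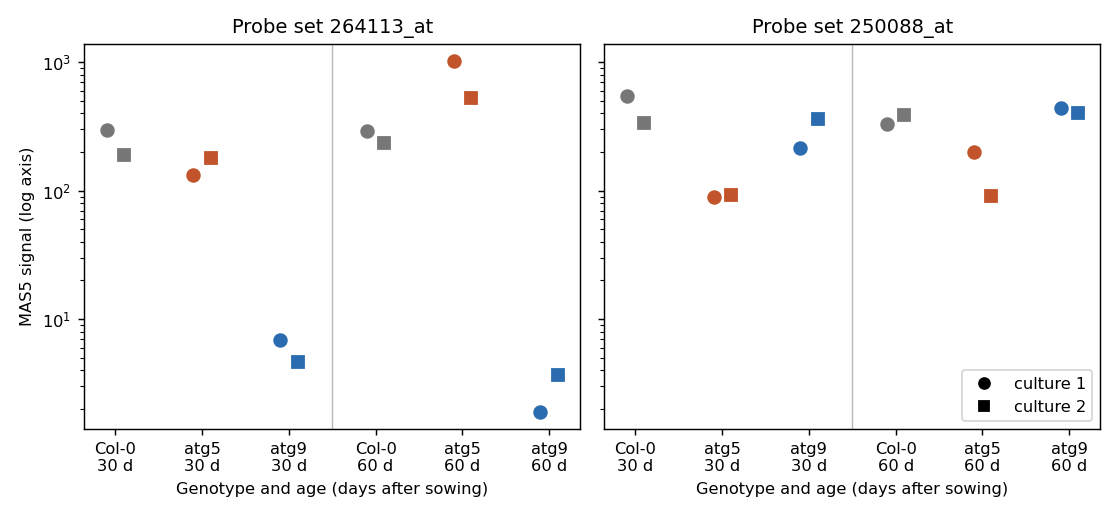
MAS5 signals, on a log axis, of 264113_at (left) and 250088_at (right) in the 12 low-nitrate arrays by genotype and age, where each point is 1 array and circles and squares are cultures 1 and 2. For 264113_at the 4 atg9 arrays sit at 1.9 to 6.9 while atg5 and Col-0 sit above 100, and for 250088_at the 4 atg5 arrays sit below every atg9 and Col-0 array.

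Among probe sets with 1 gene and the same direction in all 4 pairs, the 10 of smallest p that were lower in atg9 had differences between -0.81 and -1.49 (limma adjusted p = 0.429 to 0.466). Direction in all 4 pairs was part of their selection, and 1295 probe sets were lower in all 4 pairs (9.49% of those tested). AT3G22060, which encodes a secreted protein related to cysteine-rich receptor kinases, had signals of 310.2, 254.1, 581 and 418.2 in atg5 (30 days in cultures 1 and 2, then 60 days in the same order). In atg9 they were 182.4, 139.2, 178.3 and 165.3. This was the 1 gene of the 10 whose 4 atg9 arrays all lay below the 4 atg5 arrays, and its difference was -1.04 ± 0.18. AT1G26380, for a flavin oxidase of the berberine bridge enzyme family, had 59.6, 33.4, 776.4 and 1141.3 in atg5 and 4.5, 4.1, 433.6 and 391.4 in atg9. The signals of both mutants were far higher at 60 days than at 30 days. Within each age both atg9 arrays lay below both atg5 arrays, with a difference of -1.11 ± 0.18. At 30 days its atg9 signals were under the lower quartiles of their arrays, 32.4 and 27.9. The atg5 signal of culture 2 was at the lower quartile of its array, 33.4. The 30-day part of the difference thus rests on signals near the bottom of the scale.

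AT5G59670, for a receptor kinase with leucine-rich repeats and a malectin-like domain, had 420.8, 445.6, 1379.3 and 1386.1 in atg5 and 180, 88.6, 957.8 and 581.3 in atg9. Its difference was -1.20 ± 0.23 over both ages, with -1.54 at 30 days and -0.86 at 60 days. UBC32, a ubiquitin-conjugating enzyme of the endoplasmic reticulum that takes part in the disposal of misfolded proteins, had 900.8, 840.9, 3127.7 and 3344.2 in atg5. In atg9 it had 505.7, 585.6, 1497.1 and 1775.3, a difference of -0.81 ± 0.15, and its Col-0 level at 30 days, 998.3 and 880.5, was above both mutants in each culture. AT1G62760, whose protein belongs to the pectin methylesterase inhibitors, had signals that went with age from 122 and 53.1 to 9587.3 and 5805.1 in atg5. In atg9 its signals went from 63 and 23 to 3049.2 and 2005.4, and the difference between mutants was -1.12 ± 0.21. AT5G39520 showed the widest gap of the 10 at -1.49 ± 0.29, with 500.2, 79.5, 13802.4 and 6084.2 in atg5 and 56.2, 26, 4772.2 and 3289.7 in atg9. AT3G18250 differed by -1.14, AT3G15760 by -0.98, AT2G32160 by -0.92 and AT1G74440 by -0.83.

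The order of the 3 genotypes was alike in these 10 genes at 60 days. Col-0 was lowest, atg9 intermediate and atg5 highest in all 10. That atg9 lay below atg5 was set by the choice of the genes, so only the place of Col-0 was free. Col-0 lay below both mutants at 60 days in 56.8% of all probe sets with a negative difference. In the 10 genes at 30 days, Col-0 lay below both mutants in 2, between them in 6 and above both in 2. All 10 had higher mean levels at 60 days than at 30 days in both mutants. The share of all probe sets with this rise was not counted, so the 10 cannot be set against it. Against Col-0 over both ages, 28 probe sets passed in atg5 (0.205%, 26 higher and 2 lower) and 0 in atg9 (background 0%). At an unadjusted p under 0.05, limma gave 1071 higher (7.85%) and 1297 lower (9.5%) in atg5, and 305 higher (2.23%) and 254 lower (1.86%) in atg9. Of the 10 genes, AT3G22060, with Col-0 signals of 25.7 to 100.7, rose in atg5 (limma adjusted p = 0.0391), as did AT2G32160, by 1.41 (adjusted p = 0.0493), and none passed in atg9, where their differences from Col-0 ran from -0.15 to 1.62. The mutants share their Col-0 arrays in these comparisons, and the count of 28 in atg5 was 0 without any 1 of the 6 arrays of 60 days. Among the 30-day arrays it was 2 without Col-0, 1 without atg5 and 0 without atg9 of culture 1, and 243 without Col-0, 93 without atg5 and 26 without atg9 of culture 2.

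**Figure D2:**
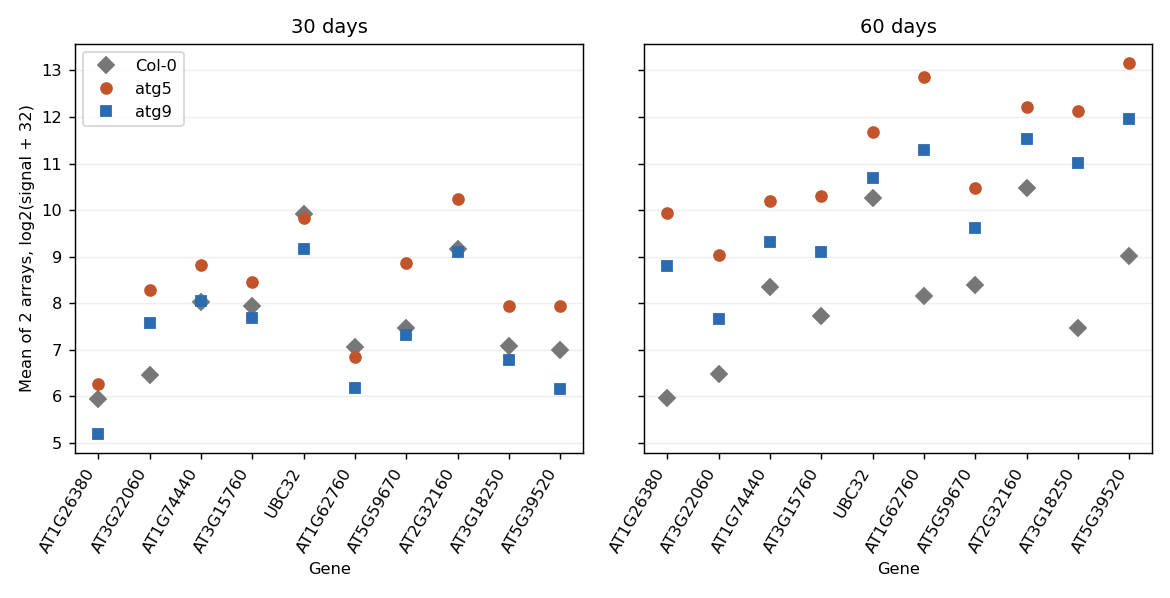
Mean log2(signal + 32) of 2 arrays in Col-0 (grey diamonds), atg5 (orange circles) and atg9 (blue squares) for the 10 genes lower in atg9, at 30 days (left) and 60 days (right). At 60 days the order is Col-0, atg9, atg5 from the lowest in all 10, while at 30 days Col-0 lies between the mutants in 6. The order of atg9 and atg5 was set by the choice of the genes.

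The same placement of Col-0 was counted over all probe sets. Of the 546 that were lower in atg9 at an unadjusted p under 0.05, Col-0 lay below both mutants in 502 at 60 days (91.9%), against 56.8% of all 5943 probe sets with a negative difference. At 30 days the shares were 33% and 37.6%. Of the 311 that were higher in atg9, Col-0 lay above both mutants in 213 at 60 days (68.5%), against 65% of all 7705 with a positive difference.

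The 10 genes of smallest p that were higher in atg9 differed less, by 0.51 to 0.89 (limma adjusted p = 0.534 to 0.655), and 1464 probe sets were higher in all 4 pairs (10.7%). HON4, for a chromatin protein with a linker histone domain, had 585.6, 627.1, 678.5 and 696.6 in atg5 and 833.6, 876.7, 1052.6 and 975.4 in atg9. Its 4 atg9 arrays all lay above the 4 atg5 arrays and its difference was 0.51 ± 0.13. AT1G47670, of an amino acid transporter family, was separated in the same way, with 113.1 to 211.6 in atg5 and 212.7 to 274.7 in atg9 and a difference of 0.54 ± 0.14. CCS, the copper chaperone that loads copper/zinc superoxide dismutase, had 856.7, 537.7, 702.6 and 483.7 in atg5 and 1101.7, 675.7, 1821 and 1479.1 in atg9. Its difference was 0.33 at 30 days and 1.44 at 60 days, 0.89 ± 0.24 over both.

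AT1G22690, of the gibberellin-regulated GASA family of small secreted peptides, had 1331.5, 2112.5, 383 and 695.8 in atg5 and 2290.8, 3765.1, 518.1 and 935.3 in atg9. The level was lower at 60 days in both mutants, and the difference was 0.60 ± 0.15. AT5G48490, a lipid transfer protein of the DIR1 type, had 2822.5, 2278.1, 804.7 and 1239.3 in atg5 and 4474.4, 4531.4, 1459.9 and 1493.2 in atg9, a difference of 0.68 ± 0.18. AT3G10080, of the cupin family, differed by 0.64, AT3G62820, of the invertase and pectin methylesterase inhibitor family, by 0.74, and AT3G26960, of the pollen Ole e 1 family, by 0.78. AT2G24970 differed by 0.60 and AT3G55420 by 0.51. At 60 days Col-0 lay above both mutants in 6 of the 10 and between them in 4, and none passed against Col-0 in either mutant.

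**Figure D3:**
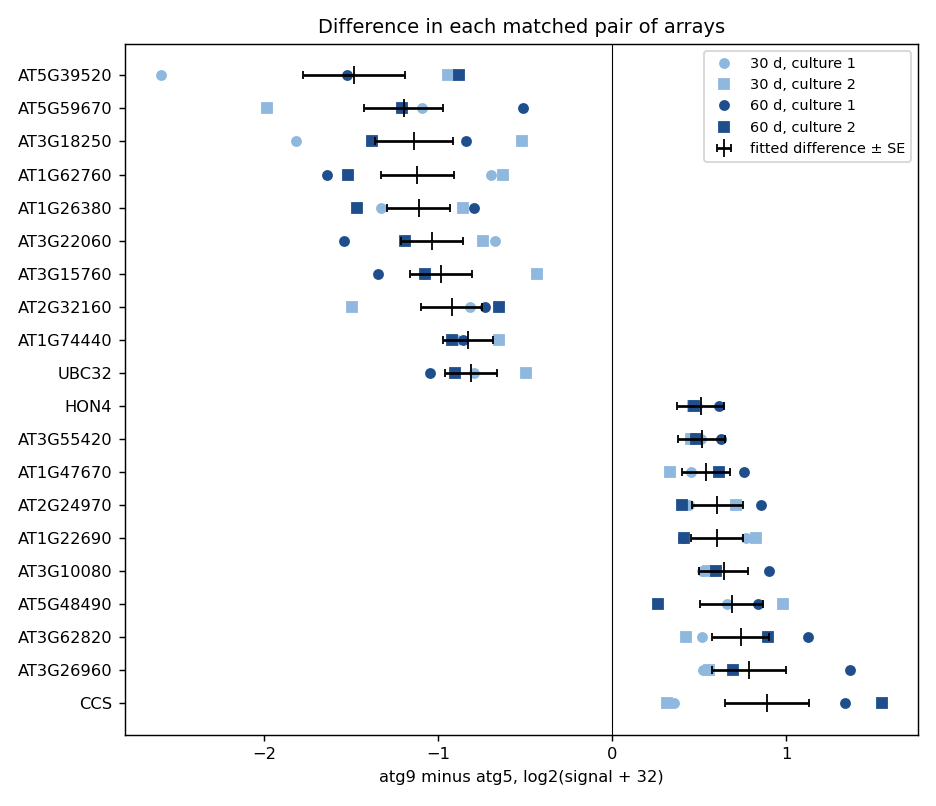
Difference of atg9 minus atg5 on the log2(signal + 32) scale in each of the 4 matched pairs (light symbols 30 days, dark 60 days, circles culture 1, squares culture 2), with the fitted difference ± SE in black, for 20 genes chosen by smallest p among those with 1 sign in all pairs. The 10 lower genes spread over a wider range between pairs than the 10 higher ones, and AT5G39520 is furthest from 0 at -1.49.

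Among probe sets without a gene name, the 4 of smallest p after 264113_at on the lower side were 247602_at at -1.08 ± 0.14, 267559_at at -1.27 ± 0.20, 252984_at at -1.20 ± 0.20 and 254741_s_at at -0.88 ± 0.15. The signals of 247602_at were 436.3, 246.8, 2671.8 and 1666.8 in atg5 and 170, 98.6, 1482.8 and 717.5 in atg9, with atg9 below atg5 at each age. On the higher side, after 250088_at, they were 253981_at at 0.77 ± 0.16, 247246_at at 0.66 ± 0.15, 259783_at at 0.72 ± 0.17 and 262196_at at 0.58 ± 0.15. None of the 8 passed (limma adjusted p = 0.414 to 0.601).

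Full separation of the arrays was rare. The 4 atg9 arrays all lay below the 4 atg5 arrays in 30 probe sets (0.22%) with a median difference of -0.41, and all above them in 71 (0.52%) with a median of 0.38. Within each age separately, both atg9 arrays lay below both atg5 arrays in 412 probe sets (3.02%) and above in 430 (3.15%).

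At 30 days no probe set passed (0 of 13648, background 0%), and 218 had an unadjusted p under 0.05 by limma, 180 of them lower in atg9 (1.32%) and 38 higher (0.278%). The count of 218 was 357 and 358 without the atg5 array of 60 days of culture 1 and of culture 2. The pair of culture 1 held 162 probe sets over 2-fold lower in atg9 and 6 over 2-fold higher, and that of culture 2 held 98 and 13. The pairs shared 20 of the lower ones, 12.3% of the first list and 20.4% of the second, and 1 of the higher ones, 250088_at. Of the 20, 14 were also lower in both pairs of 60 days. Over all probe sets, a 30-day pair and a 60-day pair agreed in sign in 48.1% to 56.4%. Col-0 lay below atg5 in 18 at 30 days, where atg5 was high by the choice of the 20. Neither count was taken over all probe sets. Among the 20, 5 have 1 gene. These 5, named after their values were seen, were AT5G59670, AT1G35710 for a receptor kinase with leucine-rich repeats, GRX480 for a glutaredoxin of the salicylic acid response, QQS for a small protein that affects starch and protein content, and AT5G25560. QQS differed by -1.56 at 30 days and by -0.47 at 60 days, and over both ages its difference from Col-0 was 0.15 in atg5 and -0.86 in atg9. The 5 of smallest p at 30 days were 264113_at, 245265_at at -1.51, 265917_at at -1.07, 247602_at at -1.15 and AT5G59670 at -1.54 (limma adjusted p = 1 in each). The signals of 245265_at at 30 days were 3729.1 and 3416.3 in atg5 against 1597.8 and 953.9 in atg9, and at 60 days 7871.8 and 6978.7 against 7310.4 and 4930.6, so the gap was wide at the earlier age and narrow at the later one.

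At 60 days 1267 probe sets had an unadjusted p under 0.05, 560 lower in atg9 (4.1%) and 707 higher (5.18%). The count of 1267 was 2393 without the atg5 array of 60 days and culture 2 and 732 without the atg9 array of 60 days and culture 1. Over 2-fold differences were more frequent than at 30 days, with 432 lower and 676 higher in the pair of culture 1 and 448 lower and 201 higher in that of culture 2. The pair of culture 1, which holds the atg5 array with the raised actin ratio, had a spread of differences of 0.583 (SD over probe sets), against 0.478 for culture 2 and 0.333 and 0.334 for the 30-day pairs. Between pairs the differences correlated across probe sets at 0.0949 to 0.354 over 13648 probe sets, as a description, and pairs share no array. After 264113_at, the probe sets of smallest p were 256771_at at -2.29, AT3G19030 at -1.97, 262911_s_at at -1.70 and AT2G15220, for a basic secretory protein, at -1.93 (limma adjusted p = 0.0972 to 0.216). AT3G19030 had 1880 and 732.2 in atg5 and 443.4 and 169.6 in atg9 at 60 days. At 30 days it had 5565.8 and 1923.5 in atg5 and 4549.9 and 1822.7 in atg9, so that the mutants lay close there. AT2G15220, read by a probe set that can match related genes, had 1281.3 and 1481.9 in atg5 against 376.8 and 302 in atg9 at 60 days and at most 66.5 in either at 30 days.

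A test of whether the difference between the mutants changed with age called no probe set (0 of 13648, background 0%, smallest limma adjusted p = 0.996). The unadjusted p was under 0.05 in 537, 356 higher (2.61%) and 181 lower (1.33%). The count of 537 was 1416 without the atg5 array of 60 days and culture 2, and among the 30-day arrays 285 without atg5 of culture 1, 341 without atg5 of culture 2 and 291 without atg9 of culture 2. The smallest p belonged to 256771_at, where the difference moved by -2.09, then 264101_at by 2.01, 262911_s_at by -1.63, AT3G19030 by -1.78 and 265454_at by 1.73. For 264113_at the change with age was -2.16 (unadjusted p = 0.00211). Its atg9 signals were near the bottom of the scale at both ages, and its atg5 signals were higher at 60 days.

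**Figure D4:**
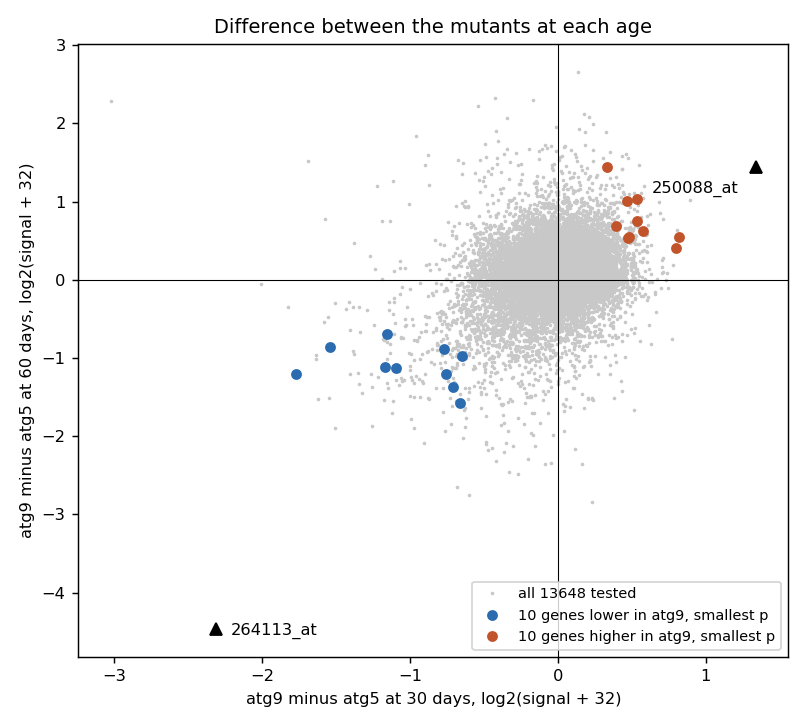
Difference of atg9 minus atg5 at 30 days (horizontal) and at 60 days (vertical), both on the log2(signal + 32) scale, for all 13648 probe sets (grey), the 10 named genes on each side (blue lower, orange higher) and the 2 probe sets over 2-fold apart in all 4 pairs (triangles). The cloud is wider at 60 days, and 264113_at at -2.31 and -4.47 and 250088_at at 1.34 and 1.44 stand away from it.

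Gene lists were read by counts and medians, beside a median of 0.035 over all probe sets. The median over all was -0.028 at 30 days and 0.092 at 60 days. Of the 1073 genes listed 180 were tested, and most lists were tested only in small part. Their medians speak for the tested members alone. Over both ages 5943 of the 13648 probe sets tested were below 0 and 7705 above. Of 180 list members tested none passed (limma, background 0%), and 20 had an unadjusted p under 0.05 (11.1%, against 6.28% of all probe sets tested). The 180 include 4 families that were chosen after values were seen. There the unadjusted p was under 0.05 in 4 of 8 berberine bridge enzyme-like genes and 1 of 5 chitinases. It was so in 3 of 4 malectin-like receptor kinases and in the 1 cysteine-rich receptor kinase. These families lift the 11.1%, which is therefore no result about the lists. The autophagy machinery came first. Of 8 core genes tested all 8 were below 0, with a median of -0.20 (-0.11 at 30 days and -0.30 at 60 days). AT3G61960, for the ATG1A kinase that starts autophagosome formation, had 570.7, 522.9, 2088.5 and 1971.9 in atg5 and 512, 474.6, 1204.1 and 1120.2 in atg9, a difference of -0.46 (unadjusted p = 0.0283). AT1G77890, for the ATG14A subunit of the lipid kinase complex, differed by -0.56, the kinase ATG1B (AT3G53930) by -0.38 and ATG3, the enzyme that transfers ATG8 to lipid, by -0.26. At 60 days both atg9 arrays lay below both atg5 arrays in ATG1A and ATG14A and overlapped with them in ATG1B and ATG3. At 30 days they lay below in ATG1A, ATG1B and ATG3 and overlapped in ATG14A.

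The ATG8 proteins coat the autophagosome membrane and bind cargo receptors. All 9 were tested, 8 were below 0 and the median was -0.25 (-0.03 at 30 days and -0.34 at 60 days). ATG8H had 339.1, 231, 4942.5 and 2339.4 in atg5 and 229, 284.4, 1029.6 and 844.4 in atg9. The mutants overlapped at 30 days and were apart at 60 days, with a difference of -0.12 and then -1.83, and of -0.98 over both (unadjusted p = 0.0296). It was -0.56 without the 60-day pair of culture 1. ATG8E differed by -0.44, ATG8A by -0.40 and ATG8D by -0.25. The 9 endomembrane and SNARE genes had a median of -0.11, with VPS60.1, a subunit of the ESCRT machinery that sorts membrane proteins to the vacuole, at -0.41 and the vesicle fusion protein KEU at -0.33.

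The 4 salicylic acid and pipecolate genes tested, of 28 listed, were all below 0 with a median of -0.80. They were WRKY53, a transcription factor of senescence and defence, at -0.92, GRX480 at -0.83, SARD4 (AT5G52810), which makes pipecolate, at -0.77 and SAG101, a partner of EDS1 in immune signalling, at -0.17. SARD4 had 342.3, 335.2, 956.5 and 2248.8 in atg5 and 292, 293, 671.4 and 468.6 in atg9, lower in all 4 pairs (unadjusted p = 0.0467). A further set of 4 families was chosen after values were seen, and their counts support nothing by themselves. Of 8 berberine bridge enzyme-like genes 6 were below 0 with a median of -0.61, with AT1G30700 at -1.19 and AT1G26390 at -1.12 beside AT1G26380, and AT4G20830 at -0.62. All 5 chitinases were below 0 with a median of -0.56, from the gene listed as CHI (AT2G43570) at -1.39 and AT4G01700 at -0.64 to ChiC at -0.56 and AT3G47540 at -0.40, and the median was -0.36 without the 60-day pair of culture 1. CHI had 557.8, 71.6, 5052.4 and 8056.2 in atg5 and 152.6, 51.8, 2325.7 and 1439.4 in atg9, so cultures differed more than mutants at 30 days.

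Of 4 malectin-like receptor kinases 3 were below 0 with a median of -0.83, with AT5G59680 at -0.85, AT1G51890 at -0.81 and AT1G51805 at 0.15. The 1 cysteine-rich receptor kinase, AT1G70740, lay at -0.47. Members of these families that sit side by side in the genome are similar in sequence, and whether they share probes was not tested. The jasmonate and ethylene list had 2 members, the defensin genes PDF1.2 at 0.36 and PDF1.2b at -0.40, both below 0 at 30 days and above 0 at 60 days. The median of the list was -0.02, and -0.37 without the 60-day pair of culture 1.

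All 3 senescence genes tested, of 28 listed, were below 0 with a median of -0.83. SAG29, a sucrose transporter (SWEET15) that is induced in senescing leaves, had 920.9, 100.5, 446.3 and 65 in atg5 and 86.2, 80.6, 70.8 and 22.4 in atg9. Its difference was -1.57 (unadjusted p = 0.00477), carried by culture 1 at -2.61 while culture 2 gave -0.53. PPDK, whose enzyme helps export nitrogen from ageing leaves, had 1543.5, 1718.2, 9997.6 and 5168.5 in atg5 and 1048.5, 842.4, 3631.2 and 4167.5 in atg9. It was lower in all 4 pairs, at -0.83 (unadjusted p = 0.00399), and WRKY6, a senescence transcription factor, lay at -0.23. The 3 heat shock genes tested, of 32 listed, had a median of -0.81. They were the peptidyl-prolyl isomerase AT5G48570 at -1.02, Hsp70-2 at -0.81 and BOB1 at -0.07. AT5G48570 had all 4 atg9 arrays (98.5 to 265.4) below all 4 atg5 arrays (268.6 to 803.9). The 5 genes of protein folding in the endoplasmic reticulum had a median of -0.25, with ATERDJ3B at -0.27, BZIP60 at -0.26, BZIP28 at -0.25 and BZIP17 at -0.11.

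Several lists with medians above 0 had their higher values at 60 days. The 4 flavonoid and anthocyanin genes tested, of 38 listed, had a median of 0.48, with -0.26 at 30 days and 1.23 at 60 days. DFR, the reductase at the entry to anthocyanins, had 2841.4, 1182.5, 107.3 and 3163.5 in atg5 and 2766.9, 741.2, 690.7 and 10719.9 in atg9. At each age its cultures lay further apart than the mutants. DFR lay at 0.86, the glycosyltransferases UF3GT at 0.74, UGT78D1 at 0.23 and UGT78D2 at -0.17. Each of the 4 changed sign in at least 1 alternative. Without the 60-day pair of culture 1, which holds the atg5 array with the raised actin ratio, the list's median was 0.27. The 5 cold and dehydration genes had a median of 0.46 (-0.27 at 30 days and 1.04 at 60 days), with the chloroplast protectants COR15A at 0.81 and COR15B at 0.56, the linker histone HIS1-3 at 0.46 and the dehydrin COR47 at -0.28, and a median of 0.14 without that pair. The 3 glucosinolate and sulfate genes had a median of 0.45 (0.08 at 30 days and 0.82 at 60 days), with BCAT4, which starts methionine-derived glucosinolates, at 0.85, APS3 at 0.45 and UGT74B1 at 0.13, and a median of 0.20 without that pair.

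The 10 nuclear photosynthesis genes lay near 0 with a median of -0.01 and a range of -0.15 to 0.10. RCA was at -0.15, LHCB4.2 at 0.10, PSAN at 0.09 and PRK at -0.06. The 68 plastid-encoded genes had a median of 0.06, which was -0.26 in culture 1, 0.35 in culture 2 and 0.20 without the 60-day pair of culture 1. Among them psbM lay at 0.68, higher in all 4 pairs, and psbN at -0.64, lower in all 4, both small genes of photosystem II, with rps3 at 0.88 and rpl36 at 0.80. The 7 oxidative stress genes had a median of -0.01, with the zinc finger factor STZ at -1.31, MSRB5 at 0.51, MSRB9 at -0.42 and NDB2 at -0.33. The 4 touch and wounding genes had a median of -0.44, with CML38 at -0.79, PUB24 at -0.50, PUB23 at -0.38 and CML42 at 0.23.

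The 4 proteases had a median of 0.02, from GAMMA-VPE at -0.27 and APA1 at -0.15 to CLPP4 at 0.19 and BETA-VPE at 0.60. Lists with 1 tested member gave GI of the clock at -0.56, PYE of the iron response at -0.38, PRL of cell division at 0.26, RPN12a of the proteasome at 0.13 and the nitrate transporter NRT2.5 at 0.03. Without the 60-day pair of culture 1 these were -0.03 for GI, -0.20 for PYE, 0.07 for PRL, 0.21 for RPN12a and -0.55 for NRT2.5, and GI was -1.22 in culture 1 and 0.10 in culture 2. The annotated neighbours of the disrupted genes were read as well. The 3 tested genes beside ATG9, AT2G31290, INH3 and AT2G31240, lay between -0.04 and 0.02. Of the 3 beside ATG5, AT5G17350 lay at -1.10 (unadjusted p = 0.0501), AT5G17280 at -0.27 and AT5G17250 at 0.01. AT5G17350 had 904.7, 182.7, 145.3 and 156.4 in atg5 and 621.2, 51.7, 47.3 and 40.9 in atg9.

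**Figure D5:**
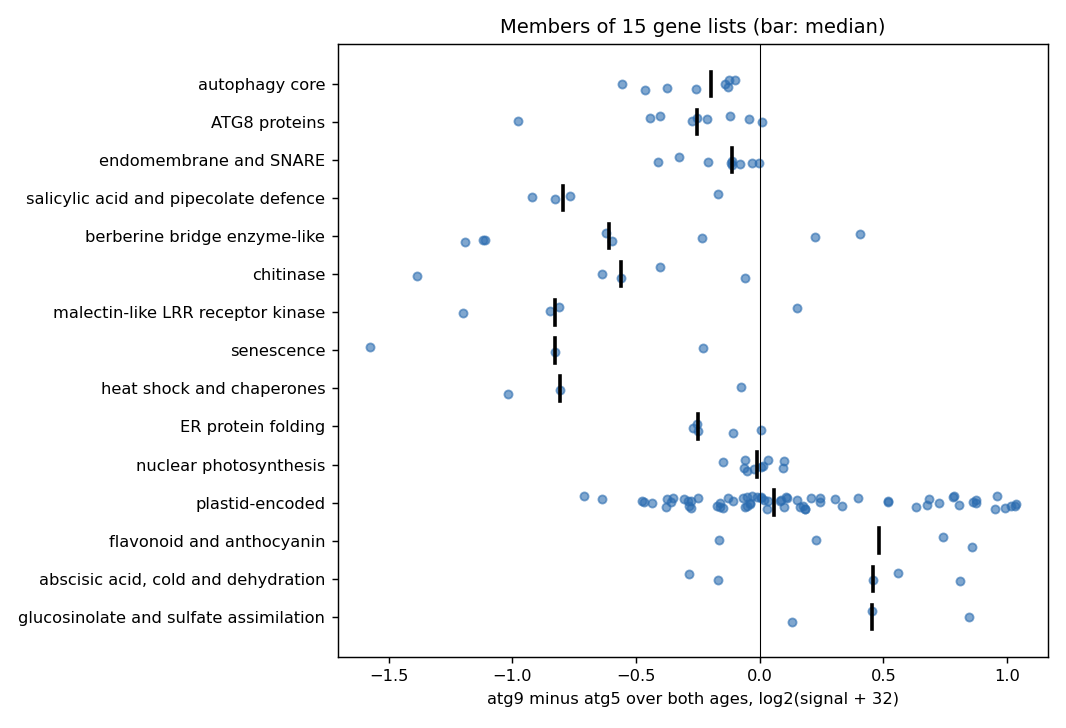
Difference of atg9 minus atg5 over both ages on the log2(signal + 32) scale for the tested members (points) of 15 gene lists, with the median of each list as a black bar and 0 as a line. The salicylic acid, senescence and heat shock lists have medians of -0.80, -0.83 and -0.81, from 4 of 28, 3 of 28 and 3 of 32 listed genes. Nuclear photosynthesis genes lie within -0.15 to 0.10, and plastid-encoded genes spread on both sides of 0.

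Markers of other cell types were summed. The 3 root markers (PYK10, EXPA7, EXPA18) gave 448.9 to 1201.6 in atg5 and 369 to 1383.5 in atg9. The flower marker AGL24 gave 220.1 to 335.5 and 250.5 to 411.2. The 3 measured members of the guard cell and epidermis list (FMA, SPCH, MUTE) gave 170.9 to 489 and 243.8 to 628.1. These ranges, over both ages, overlap between the mutants, and no marker was at 0. Within matched pairs the sum of FMA, SPCH and MUTE was higher in atg9 in all 4. It was 497.6 against 411, 628.1 against 489, 243.8 against 170.9 and 289.2 against 245.3. Only 1 of these 3, FMA, was bright enough to be tested. FMA alone differed by 0.39 (unadjusted p = 0.027), higher in atg9 in all 4 pairs, PYK10 by 0.07 and AGL24 by 0.24. No phloem or mesophyll marker of the lists was measured by a named probe set. In pooled rosettes fewer cells of a type and less RNA per cell cannot be told apart, and the part of cell types in the differences was not tested.

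The number of calls depended on which arrays entered. Without the 60-day pair of culture 1, which holds the atg5 array with the raised actin ratio, 12 probe sets passed over both ages (0.0879%), of which 11 were lower in atg9 and 1, 250088_at, higher (limma adjusted p = 0.0441). The only one with 1 gene was AT1G35710, at -1.64 ± 0.15 (adjusted p = 0.0249). Its signals were 706.6, 458.5 and 3704.2 in atg5 and 227.8, 112.3 and 1156.4 in atg9 in the 3 pairs kept, and 4888.5 and 4079.6 in the pair left out. Of the 12, 10 had the same sign in the pair left out, where AT1G35710 differed by -0.26. Over all probe sets, the pair left out agreed in sign with each of the 3 pairs kept in 54.3% to 60.5%.

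Within culture 1 alone 70 probe sets passed (0.513%, 64 lower and 6 higher) and within culture 2 alone 20 (0.147%, 18 lower and 2 higher), each from 4 arrays with 1 residual degree of freedom. The cultures shared 1 call, 264113_at, and 44 of the 70 and 16 of the 20 had the same sign in both pairs of the other culture. Over all probe sets, a pair of culture 1 and a pair of culture 2 agreed in sign in 52.3% to 60.5%. The share of all probe sets that matched both pairs of the other culture was not counted. Genes named after these values were seen were, in culture 1, SAG29 at -2.61, AT1G05340 at -2.55 and AT4G33150, for the enzyme that begins lysine breakdown, at -2.35 (limma adjusted p = 3.17e-05, 3.17e-05 and 4.53e-05). AT4G33150 had 617.6 and 6858.9 in atg5 of culture 1 against 123 and 1070.9 in atg9, and 144.3 and 1602.2 against 97.5 and 738.6 in culture 2. In culture 2 STZ lay at -1.89, AT1G35710 at -1.71 and AT5G59670 at -1.60 (limma adjusted p = 0.0218, 0.0237 and 0.0457). The difference between the cultures was not tested.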

How the data were processed

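The deposited table holds, for each array, an intensity per probe set. The authors computed these intensity values in MAS5 (no version given), per the submitters' processing notes. Values are linear, scaled by the authors to a trimmed mean of 500 to 500.1 on the low-nitrate arrays, and hold no detection calls. The number of arrays limits the precision.

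The 64 control probe sets were left out. Differences were fitted on log2(signal + 32) with limma 3.58.1 in R 4.3.3 (lmFit, eBayes with trend, two-sided, Benjamini-Hochberg over all probe sets tested, threshold 0.05). Probe sets under the 40th percentile of mean log2(signal + 32) over the 16 arrays, a signal of 97.6, were not tested. The fit over both ages had genotype, age and culture as terms in 8 arrays, with 4 residual degrees of freedom. Fits of each age had 4 group means and culture. Comparisons with Col-0 used 12 arrays. The scripts were tested on simulated data.

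The labels say that the replicate number marks a culture grown at one time, which pairs the arrays. Deviations from group means correlated at -0.121 to 0.707 over 6 pairs of groups, with a median of -0.0281, and the 2 over 0.1 were those of atg5 with atg9 at one age.

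Genes were named by smallest p: the 10 in each direction with 1 gene and 1 sign in all 4 matched pairs, the 5 in each direction without a gene name, up to 4 in each list, and 5 at each age and for the age difference, besides all that passed. Names come from the platform annotation, updated through the TAIR10.1 gene table, and 1 probe set was kept per gene in lists, the brightest. The 32 lists name 1073 genes, of which 253 had a named probe set and 180 were tested. Members and lists were chosen with earlier results of these data known. Alternatives were another constant, another filter, quantile normalization, no trend, array weights, other blocks and other sets of arrays.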

Additional observations from a re-analysis of the deposited data

How the results depend on the processing

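Over both ages the count of calls stayed 0 with 16 or no constant, without the filter or with the filter over the 8 mutant arrays, after quantile normalization, without the trend, with array weights, with the 12 low-nitrate arrays and without each array in turn (0 to 0). It was also 0 with no replicate block for culture (683 at an unadjusted p under 0.05 by limma) and with a replicate block for the 4 pairs (1587). It was 1 with all 16 arrays, 12 without the 60-day pair of culture 1, 70 within culture 1 and 20 within culture 2. At 30 days and for the change with age it was 0 in every alternative run. At 60 days the count of 1 was 0 with no filter, with the filter over the 8 mutant arrays, after quantile normalization and with array weights, and 0 to 2 without each array. In atg5 against Col-0 the 28 calls were 47 with 16 added, 46 with no constant, 0 with no filter, 3 without the trend, 2 with no replicate block, 1075 with array weights, 379 with all 16 arrays and 0 to 243 without each array. In atg9 against Col-0 the count of 0 was 3 with no constant, 974 with array weights, 3 with all 16 arrays and 0 to 1 without each array. Of list members, 3 passed within culture 1 (AT1G30700, CHI and SAG29) and 2 within culture 2 (AT5G59670 and STZ), an alternative added after seeing the data. The causes were not tested. All 30 genes and probe sets named by smallest p over both ages kept their sign in every alternative that tested them. Not tested were 264113_at with the filter over the 8 mutant arrays and AT1G26380 with no constant. All 30 were chosen by p on the same arrays, and those with 1 gene also for 1 sign in all 4 pairs. Alternatives that leave out whole pairs could therefore not change the sign of those genes. In at least 1 alternative 9 of the 30 passed. Of all 122 named over both ages, 26 changed sign in at least 1. Signals near the bottom of the scale, as in 264113_at, carry no exact fold: its difference ran from -6.45 with no constant to -2.79.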
